A study of Mus musculus with 4 samples.

Results

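The 10 genes described here encode the lysosomal cathepsins A, B, C, D, F, H, K, L, S and Z. They were taken by symbol (Ctsa, Ctsb, Ctsc, Ctsd, Ctsf, Ctsh, Ctsk, Ctsl, Ctss and Ctsz) from GEO's platform annotation of the array, through probe sets that carry exactly 1 gene symbol. All 10 were found, among 22180 genes in all, and each had 1 probe set, so no choice between probe sets was needed. The series compared male with female tendon in wild-type C57Bl/6 mice, an inbred strain, aged 4 months and not treated. The Achilles and plantaris tendons of an animal were pooled, RNA was amplified to cDNA, and 2 male and 2 female samples were hybridised to Mouse Gene ST 2.1 arrays. The labels call the cells tenocytes, but whole tendon was taken, so RNA of every cell type present entered each array.

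Cathepsins are proteases of the lysosome, the acidic compartment in which cells break down proteins taken up from outside or delivered by autophagy. They are made as inactive proenzymes, sorted to the lysosome largely by receptors for mannose 6-phosphate, and activated there by cleavage at low pH. Most are cysteine proteases, whereas cathepsin D is an aspartic protease and cathepsin A a serine carboxypeptidase. In connective tissue, fibroblasts and macrophages use them to degrade collagen and other matrix proteins after uptake, and the activity of the cysteine cathepsins is held in check by cystatins.

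Values are log2 expression values after RMA, the array summary method named in the submitters' processing notes, so a difference of 1 is a doubling of signal. The medians over all 41345 rows of the table lay between 2.27 and 2.30 on the 4 arrays, and signal near them was not told from background. Each sex had 2 arrays, and this number limits the precision. Nothing in the labels ties the 2 samples of a sex to different animals, so the error behind each p-value is that between samples and may be technical. Female 2 stood apart from the other arrays in some cell type markers. Relative to the gene means it lay at a median of 0.59 for 18 macrophage markers, with the other arrays between -0.27 and -0.09. For 9 genes of MHC class II and antigen presentation it was at 0.43, with the others between -0.12 and -0.05. For 12 skeletal muscle markers female 2 was at -0.27, with the others between 0.07 and 0.16. The muscle list had a median level of 10.12, beside 6.09 for 12 tendon fibroblast markers. Female 2 was the highest array for 0 of the 12 muscle markers. Of these, Myh4 and Actn3 had the largest sex differences. Myh4 was at 10.61, 10.46, 10.2 and 7.35 in male 1, male 2, female 1 and female 2. Actn3 was at 10.01, 9.67, 9.41 and 6.68 in the same order. For 12 tendon fibroblast markers female 2 was at 0.29, beside 0.18 in male 1, -0.17 in male 2 and -0.26 in female 1. In male 1 the corresponding value was -0.72 for 8 adipocyte markers and -0.37 for 8 endothelial markers. In these bulk samples, fewer cells of a type and less RNA per cell cannot be told apart.

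All 10 cathepsins gave signal above the array median on all 4 arrays. Their means over the 4 arrays ran from 3.16 for Ctsf to 8.35 for Ctsd, and as a group they had a median level of 5.13, beside 2.46 for all genes. Probe sets differ in how well they hybridise, so the order below ranks array signal and not transcript number.

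**Figure D1:**
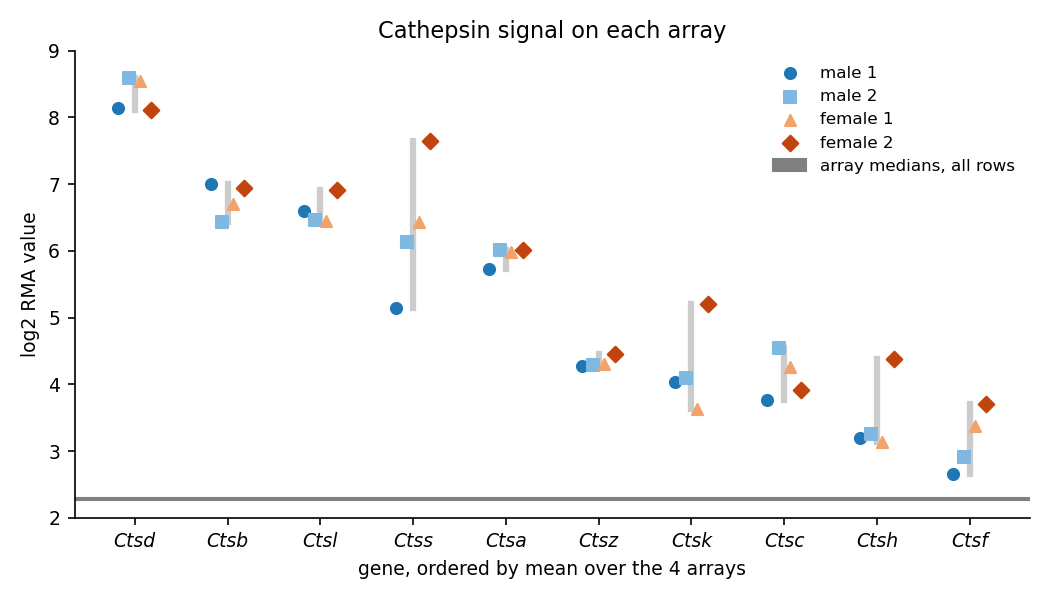
Log2 RMA values of the 10 cathepsins (vertical axis) on each of the 4 arrays (marker shape and colour), with genes ordered by their mean, a light bar over the range of each gene and a dark band for the array medians over all rows. Ctsd lay between 8.11 and 8.59, above every other cathepsin on each array, whereas Ctss spread from 5.15 in male 1 to 7.65 in female 2.

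Ctsd, the aspartic protease of the lysosome, had the highest signal. It was at 8.14 in male 1, 8.59 in male 2, 8.55 in female 1 and 8.11 in female 2, a mean of 8.35 ± 0.26 (SD over the 4 arrays). It ranked at position 244 of 22180 genes, at percentile 98.9, and between percentiles 98.7 and 99.1 on the single arrays. One male and one female array were high and the other of each sex was low, so the sexes overlapped.

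Ctsa encodes cathepsin A, which also shields lysosomal beta-galactosidase and neuraminidase from degradation. Its values were 5.73, 6.02, 5.99 and 6.02 in male 1, male 2, female 1 and female 2, at percentile 94.3 of all genes. Male 1 was the lowest, and the other arrays lay close together.

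Promoter windows from RefSeq (build GRCm38.p6), from 250 bases before to 50 after a gene's start, were searched for the letters TCACGTGA and for their core CACGTG. TCACGTGA resembles the element through which the transcription factor TFEB is known to act on lysosomal genes. Both motifs read the same on either strand, and every TCACGTGA contains a CACGTG. Windows were held for 8 of the 10 cathepsins, all but Ctsb and Ctsh. TCACGTGA was found in 2 of these 8 genes (25.0%), beside 1.12% of 27025 genes in the table, and CACGTG in 4 of 8 (50%), beside 8.09%. Counted by window of this length, the shares were 0.974% and 7.15% of 32851 windows. The genes with TCACGTGA were Ctsa and Ctsd, the members that are not cysteine proteases. In a window of Ctsa it begins 13 bases before the start and again at base 5 of the transcript, while a further window of this gene held none. In Ctsd it begins 99 bases before the start, and a separate CACGTG begins 245 bases before it. The windows are shown because these genes differ in this feature from Ctss and Ctsk, printed further on. Capitals mark TCACGTGA, or CACGTG where it stands without the flanking letters.

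Ctsd (chr7:142387778-142388077, minus strand): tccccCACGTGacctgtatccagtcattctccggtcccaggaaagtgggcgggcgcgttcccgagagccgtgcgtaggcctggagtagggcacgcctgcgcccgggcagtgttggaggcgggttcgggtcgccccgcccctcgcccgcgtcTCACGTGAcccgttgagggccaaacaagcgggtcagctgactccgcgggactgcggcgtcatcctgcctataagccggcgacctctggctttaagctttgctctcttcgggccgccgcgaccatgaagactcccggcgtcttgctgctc

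Ctsa (chr2:164833523-164833822, plus strand): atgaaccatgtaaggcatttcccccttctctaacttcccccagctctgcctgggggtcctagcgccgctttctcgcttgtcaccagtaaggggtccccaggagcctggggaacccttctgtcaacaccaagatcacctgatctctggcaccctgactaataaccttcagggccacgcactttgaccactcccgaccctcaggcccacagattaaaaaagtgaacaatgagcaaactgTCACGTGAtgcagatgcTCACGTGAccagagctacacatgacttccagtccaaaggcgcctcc

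Ctsl and Ctsf held CACGTG alone, beginning 236 and 79 bases before the start, and the windows of Ctsc, Ctsk, Ctss and Ctsz held neither. In 12 genes of lysosomal membrane proteins with a window TCACGTGA occurred in 3, and in 11 of the vacuolar proton pump in 3. It occurred in 2 of 9 genes for activation and sorting, in 1 of 22 other hydrolases and activators (4.55%), and in 0 of 11 other cathepsin genes, 0 of 10 lysosome regulators, 0 of 10 inhibitors and 0 of 13 macrophage markers. A match is a run of letters in this window and not a measured binding site.

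Ctsb and Ctsl encode the general endopeptidases of the group, of which cathepsin B also acts as a peptidase on the carboxyl end. Ctsb was at 7.0, 6.44, 6.71 and 6.94 in male 1, male 2, female 1 and female 2, a mean of 6.77 ± 0.25 (SD over the 4 arrays) and percentile 96.7. Ctsl was at 6.60, 6.47, 6.45 and 6.91, a mean of 6.61 ± 0.21 (SD over the 4 arrays) and percentile 96.3. Their array ranges overlapped, so their order is not separated by the spread. Both also overlapped the range of Ctss, which lay next below them in mean signal, and Ctss in turn overlapped Ctsa.

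The remaining cathepsins gave lower signal. Ctsz, a carboxypeptidase also known as cathepsin X, was at 4.28, 4.29, 4.31 and 4.45 in male 1, male 2, female 1 and female 2. It was the steadiest member, with a range of 0.17. Ctsc, which activates the serine proteases of immune cell granules, was at 3.76, 4.54, 4.26 and 3.92. As in Ctsd, male 2 and female 1 were above male 1 and female 2. Ctsz, Ctsk and Ctsc had means of 4.33, 4.24 and 4.12 and overlapping ranges, so their order is not separated either. Ctsh and Ctsf followed with 3.49 and 3.16, and their ranges overlapped as well. The ranges of Ctsa and of these 5 genes did not overlap.

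Ctss, Ctsk and Ctsh were the cathepsins that female 2 set apart. Ctss encodes cathepsin S, which trims the invariant chain of MHC class II in antigen-presenting cells. It was at 5.15 in male 1, 6.13 in male 2, 6.43 in female 1 and 7.65 in female 2. Ctsk encodes cathepsin K, a collagen-cleaving enzyme of osteoclasts that fibroblasts can also make. It was at 4.04, 4.10, 3.63 and 5.20 in the same order. Ctsh encodes an aminopeptidase and was at 3.20, 3.25, 3.13 and 4.38. In each of these genes female 2 was the highest array, by 1.22 for Ctss, 1.10 for Ctsk and 1.13 for Ctsh over the next. For Ctsk and Ctsh the lowest array was the other female. Ctss also had a low array, male 1, which lay 0.98 below male 2.

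Such an excess of female 2 over each other array by more than 0.5 was met by 3 of 10 cathepsins. Among the 11760 probe sets above the median level it was met by 701, or 5.96%. The margin was set after the values had been seen, so this is a description of 1 array and carries no test. Female 2 was the highest array for 7 of 10 cathepsins, beside 5500 of 22180 genes and 3075 of 11108 genes above the median level. Among the 7, Ctsf and Ctsl were highest there by 0.32 and 0.31, and Ctsz and Ctsa by only 0.14 and 0.01. Ctsc and Ctsd lay 0.62 and 0.47 below the highest other array in female 2, so the cathepsins did not shift as a block. The promoter windows of Ctss and Ctsk, which hold neither motif, are shown for comparison with those of Ctsd and Ctsa and so have no capitals. Ctsh had no window.

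Ctss (chr3:95526536-95526835, plus strand): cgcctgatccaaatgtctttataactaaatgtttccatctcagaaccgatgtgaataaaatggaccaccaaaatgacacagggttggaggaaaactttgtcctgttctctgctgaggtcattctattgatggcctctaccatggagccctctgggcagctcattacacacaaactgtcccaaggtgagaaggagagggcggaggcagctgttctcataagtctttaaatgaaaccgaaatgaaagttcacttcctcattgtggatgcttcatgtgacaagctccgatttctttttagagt

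Ctsk (chr3:95498960-95499259, plus strand): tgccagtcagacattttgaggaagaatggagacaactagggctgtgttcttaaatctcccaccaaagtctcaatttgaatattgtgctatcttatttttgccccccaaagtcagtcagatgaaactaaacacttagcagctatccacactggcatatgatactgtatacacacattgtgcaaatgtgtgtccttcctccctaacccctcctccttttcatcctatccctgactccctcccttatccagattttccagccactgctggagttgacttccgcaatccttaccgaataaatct

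Markers of several cell types moved with these genes in female 2. Of 18 macrophage markers, 11 lay above each other array by more than 0.5 there, and the log2 of their summed signal was 9.03 to 9.15 in the other arrays and 0.86 above the highest of these in female 2. Cd68, a lysosomal membrane protein of macrophages, was at 4.62, 4.77, 4.97 and 6.78 in male 1, male 2, female 1 and female 2. Adgre1, the F4/80 antigen, was at 3.49, 3.42, 3.38 and 4.56, and Csf1r, the receptor for a macrophage growth factor, at 4.51, 4.23, 3.81 and 5.16. All 3 had female 2 highest, as Ctsk and Ctsh did, and so had 12 of the 18 markers in all. Others went against this. Aif1 was lowest in female 2, at 3.71, 2.90, 2.82 and 2.69, and Cx3cr1 was level at 5.12, 5.28, 5.18 and 5.21. For Csf1r the gap to the next array, 0.65, was no wider than the span of the other 3 arrays.

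Of 9 measured genes of MHC class II and antigen presentation, 3 met the same margin, among them H2-Aa at 2.25, 2.94, 2.95 and 6.10. Cd74, the gene of the invariant chain, had no probe set with exactly 1 gene symbol and so was not measured. The log2 of the summed signal of this list was 8.73 in female 2 and 7.99 in male 1, beside 6.46 in male 2 and 6.76 in female 1. The sum in male 1 was carried by H2-Ab1, at 7.72 there, 5.38 in male 2, 5.93 in female 1 and 8.19 in female 2. H2-Aa and H2-Eb1 were lowest in male 1, as Ctss was, but the other measured genes of the list were lowest on another array. The median deviation of the list was -0.05 in male 1, -0.11 in male 2, -0.12 in female 1 and 0.43 in female 2.

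Tendon fibroblast markers met the margin in 5 of 12 genes, with Pdgfra at 4.20, 3.58, 4.15 and 5.13 and Thy1 at 4.69, 4.50, 4.97 and 5.84. The other members that met it were the matrix genes Thbs4, Fmod and Comp. Tnmd, a marker of mature tendon cells, was at 5.06, 4.60, 4.42 and 4.39 and so was lowest there, and the tendon transcription factor genes Scx and Mkx were at -0.06 and -0.28 relative to the highest other array. Of 11 osteoclast markers, 0 met it. Calcr and Ocstamp, taken here as osteoclast markers, had means of 2.22 and 2.38, at the level of the array medians, and Acp5, the tartrate-resistant phosphatase, was at 2.73. The osteoclast list had a median level of 2.38, with 4 of 11 members above the median level of all probe sets tested, against 16 of 18 for macrophages. In 11 neutrophil and mast cell markers 0 were above that level. The part of macrophage, antigen-presenting, fibroblast or muscle RNA in the levels of Ctss, Ctsk and Ctsh was not tested.

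**Figure D2:**
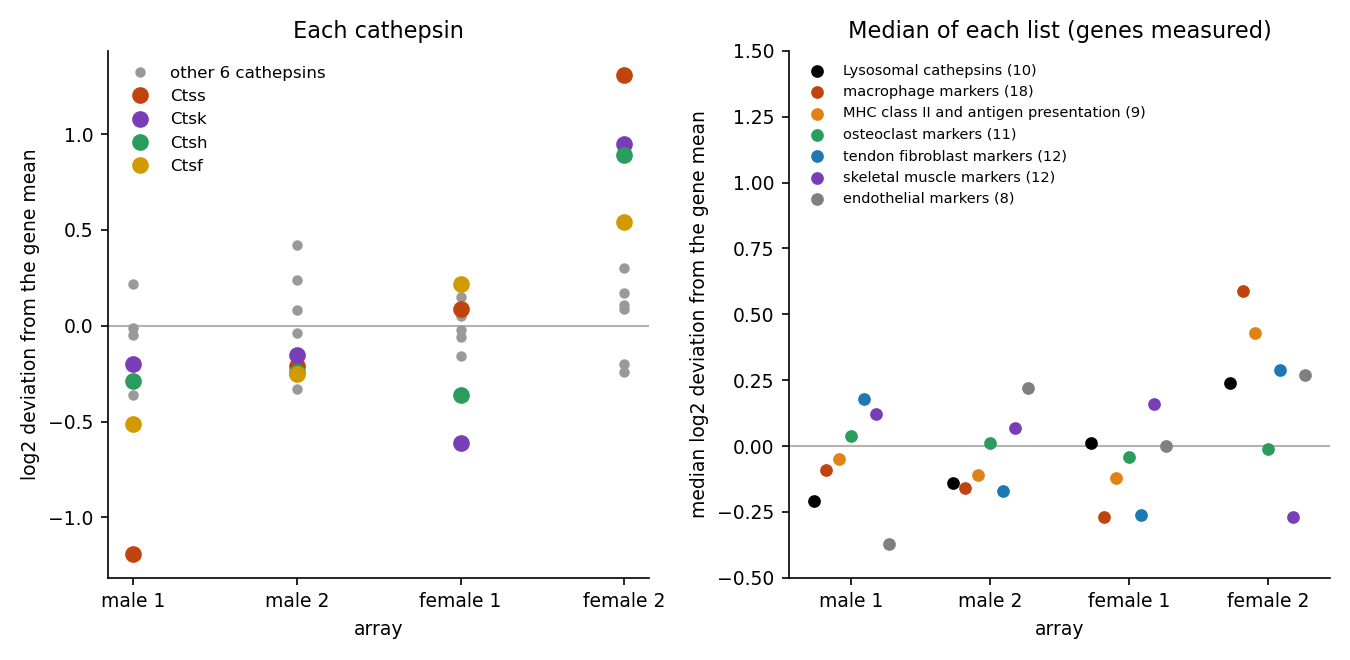
Log2 deviation from each gene's mean over the 4 arrays, by array, for every cathepsin (left) and as the median over each list of markers (right, with the number of genes measured in parentheses). In female 2 Ctss, Ctsk and Ctsh lay 1.31, 0.95 and 0.89 above their means while Ctsd lay at -0.24, and the macrophage list had the highest median of the lists drawn, 0.59.

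The spread of each member was set beside that of genes with a mean within 0.5 of its own. Ctss varied most, with an SD of 1.03 over the 4 arrays, at percentile 97.7 of 651 such genes, whose median SD was 0.35. Ctsh and Ctsk followed at percentiles 88.6 and 86.7, with SDs of 0.59 and 0.67. Without female 2 the SD fell to 0.06 for Ctsh, 0.25 for Ctsk and 0.67 for Ctss. Ctsf was at percentile 84.7 with an SD of 0.47. Ctsz, at an SD of 0.08, was at percentile 1.60 of 2127 genes and Ctsa, at 0.14, at percentile 7.58 of 871. Ctsb, Ctsd and Ctsl lay between percentiles 19.2 and 29.7, and Ctsc at 50.5. Among the steady members too 1 array could carry much of the spread: the SD was 0.02 for Ctsa without male 1, 0.02 for Ctsz and 0.08 for Ctsl without female 2, and 0.15 for Ctsb without male 2. The cathepsins of highest signal apart from Ctss thus varied less than the median gene of their level, by this ranking.

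**Figure D3:**
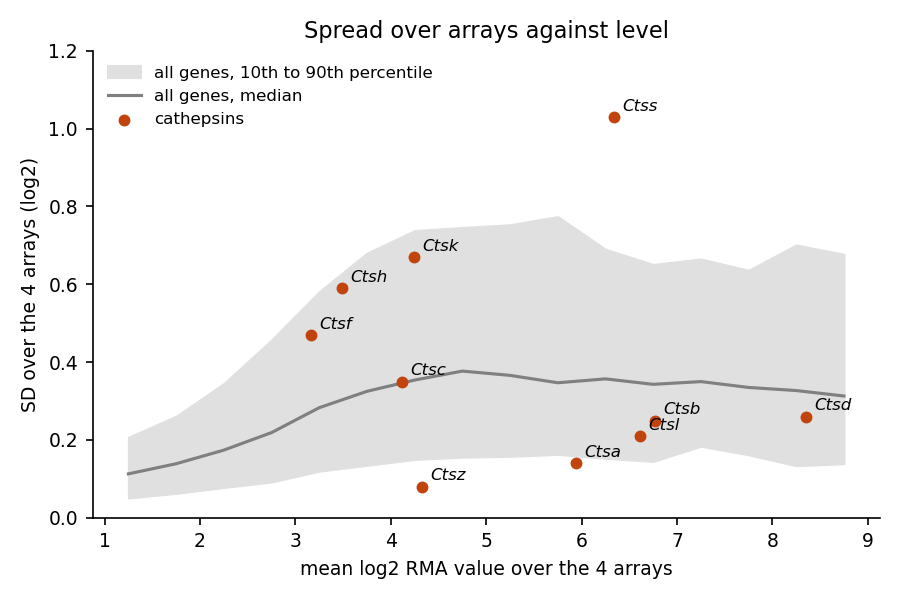
SD over the 4 arrays (vertical axis, log2) against the mean log2 RMA value (horizontal axis) for the 10 cathepsins, over a band from the 10th to the 90th percentile and a line at the median of all genes in bins of level. Ctss, at an SD of 1.03, lay above the band, and Ctsz, at 0.08, lay below it.

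The sexes were compared because the series was made to describe male and female tendon. On average 8 of 10 cathepsins were higher in females, but no member passed the test. Females were higher in 48.6% of all genes and in 56.2% of genes above the median level. Limma, fitted to all 23521 probe sets, called 0 of 10 members at an adjusted p under 0.05 after Benjamini-Hochberg adjustment, and 0 of 23521 probe sets (0%). At an unadjusted p under 0.05 there was 1 of 10 members, Ctsf, beside 4.49% of all probe sets. The median difference of the members, female minus male, was 0.14, beside -0.01 for all genes and 0.05 for genes above the median level.

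Ctss had the widest difference. Males had a mean of 5.64 ± 0.69 (SD, n = 2), and the female mean was 7.04 ± 0.86 (SD, n = 2), which differ by 1.40 (SE 0.54, 95% interval -0.06 to 2.86), or 2.64-fold (0.96 to 7.24). The adjusted p of limma was 0.969. The groups did not overlap, but the nearest arrays, male 2 and female 1, were at 6.13 and 6.43, closer to each other than to the other array of their own sex. Without female 2 the difference was 0.79 and without male 1 it was 0.91, whereas without female 1 it was 2.01. Adipocyte markers had 7 of 8 higher in females and a median difference of 0.74. Females were higher without overlap in 5 of 8, beside 15.8% of all probe sets and 19.2% of those above the median level. The median deviations of the adipocyte markers were -0.72, -0.04, 0.28 and 0.53 in male 1, male 2, female 1 and female 2, the same order of arrays as for Ctss and Ctsf. Their part in the differences of Ctss and Ctsf was not tested.

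Ctsf encodes a widely expressed cysteine cathepsin. It was at 2.65 and 2.91 in males 1 and 2 and at 3.38 and 3.70 in females 1 and 2. The difference was 0.76 (SE 0.20, 95% interval 0.24 to 1.29), or 1.70-fold, with an adjusted p of 0.969 by limma. It exceeded the differences between arrays of a sex, 0.26 in males and 0.32 in females. The signal was low, 0.35 above the median of its own array in male 1. Ctso, a further cysteine cathepsin gene outside the 10, had a like size of difference, 0.71 (SE 0.17), with 3.27 and 3.55 in males and 4.16 and 4.09 in females, and an adjusted p of 0.969 by limma.

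The groups did not overlap for 3 of 10 members, Ctss, Ctsf and Ctsz, each with females higher. Among all probe sets the share with females higher and no overlap was 15.8%, and among those above the median level it was 19.2%. For Ctsz the difference was only 0.09 (SE 0.15, 95% interval -0.30 to 0.49). Of the members, 2 of 10 (Ctss and Ctsf) had a sex difference larger in size than the difference between the arrays of either sex. The median size was 0.14 for the sex difference, 0.28 for the difference between the males and 0.40 for that between the females.

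The other members differed little between the sexes relative to their error. Ctsk and Ctsh had differences of 0.35 (SE 0.55) and 0.53 (SE 0.44), and without female 2 these turned to -0.44 and -0.10. Ctsl, Ctsa and Ctsb were at 0.14, 0.13 and 0.11, with SEs from 0.17 to 0.25. Ctsd and Ctsc were at -0.03 (SE 0.25) and -0.06 (SE 0.32). Their 95% intervals ran from -0.71 to 0.64 for Ctsd and from -0.91 to 0.80 for Ctsc. Without female 2, 6 of 10 members were higher in the remaining female than in males, and the median difference was 0.07.

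**Figure D4:**
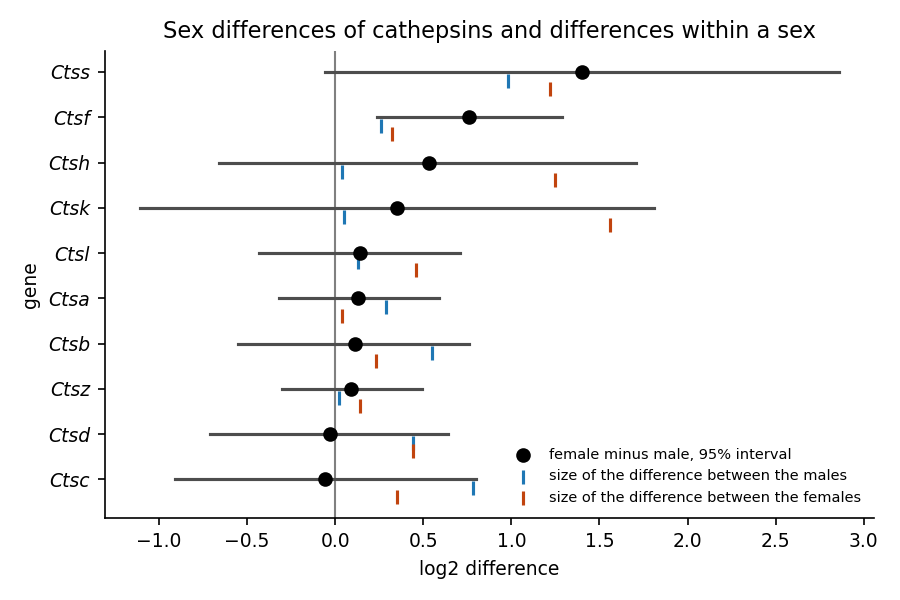
Female minus male log2 difference (points) with its 95% interval from limma (lines) for the 10 cathepsins, with ticks at the size of the difference between the males and between the females. The interval of Ctsf, from 0.24 to 1.29, is the one that does not include 0, and for Ctsk the tick of the females, at 1.56, lies beyond its sex difference of 0.35.

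Genes that act with the cathepsins were compared in the same fit, from lists drawn up by function, and limma called 0 members of any of them. Cystatins and other inhibitors had 5 of 13 higher in females and a median difference of -0.07. Cst3, the secreted cystatin C, had a signal of 9.95, 9.53, 9.86 and 10.26 in male 1, male 2, female 1 and female 2, at percentile 99.7. Cstb, the inhibitor of the cytosol, was at 5.93, 5.92, 6.43 and 6.24, a difference of 0.41 (SE 0.15) that had an unadjusted p under 0.05 and an adjusted p of 0.969. Ctla2a, which resembles a cathepsin propeptide, was at 6.05 and 6.30 in males and 4.95 and 5.83 in females.

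Genes for activation and sorting had 7 of 11 higher in females and a median difference of 0.05. Lgmn, the legumain that processes several cathepsins, was at 3.72, 4.75, 4.72 and 5.09 in male 1, male 2, female 1 and female 2. Like Ctss, it was lowest in male 1 and highest in female 2. The mannose 6-phosphate receptor genes M6pr and Igf2r differed by 0.16 (SE 0.38) and 0.35 (SE 0.24). Gnptab, a subunit of the enzyme that starts the mannose 6-phosphate tag, stood at 3.88 in male 2, while the rest of the arrays gave 2.06 to 2.30, which is the level of the array medians. Nagpa, named as the 1 gene of this list with an unadjusted p under 0.05, was at 2.72 and 3.01 in males and 2.38 and 2.32 in females.

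Other lysosomal hydrolases and activators had 13 of 24 higher in females and a median difference of 0.01. Psap, the precursor of the saposins, was at 7.03, 7.01, 6.78 and 7.08 in male 1, male 2, female 1 and female 2. Pla2g15, a lysosomal phospholipase, had the widest difference of the list at -1.64 (SE 1.10), from 6.22 and 3.64 in males and 2.31 and 4.29 in females. It overlapped between the sexes, and its spread within each sex exceeded the difference.

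Lysosomal membrane proteins had 9 of 13 higher and a median difference of 0.16. Lamp1, the main membrane glycoprotein, had a signal of 8.38 over the 4 arrays and a difference of 0.16 (SE 0.16). Lamp2 was at 7.15 and 7.20 in males and 7.50 and 7.62 in females, a difference of 0.39 (SE 0.15). Npc2, a soluble carrier of cholesterol, was at 5.46 and 5.37 in males and 6.17 and 6.94 in females. Its difference was 1.14 (SE 0.30), and Npc2 and the calcium channel gene Mcoln1 were the 2 of the list with an unadjusted p under 0.05. Neither passed the adjusted threshold of limma (adjusted p = 0.969 for both).

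Subunits of the vacuolar proton pump, which acidifies the lysosome, had 10 of 16 higher and a median difference of 0.10. Atp6v1a was the 1 gene with an unadjusted p under 0.05, at 2.96 and 2.78 in males and 3.31 and 3.43 in females. Lysosome regulators had 7 of 11 higher and a median of 0.01, and Tfeb, the factor named above, was at 2.41, 2.75, 2.82 and 2.35, near the array medians. Mitf, a related factor gene, was at 4.64, 4.0, 4.19 and 5.43 and so was highest in female 2. Flcn was the 1 regulator gene with an unadjusted p under 0.05, at 3.55 and 3.63 in males and 3.04 and 3.23 in females.

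Other genes named as cathepsins were set beside the 10. Of 13 measured, 3 had a mean above the median level of all probe sets tested, namely Ctso, Cts3 and Ctsll3, and the list had a median level of 1.88. Ctsw and Ctsg, known from cytotoxic lymphocytes and from granulocytes, had means of 1.88 and 2.10, below the array medians. Cts3 was at 3.50 and 3.09 in males and 2.73 and 2.93 in females. Cts3 and Ctsll3 had means of 3.06 and 2.54, and Ctso one of 3.77. The lowest of the 10 members, Ctsf at 3.16, was not set apart from Cts3 by its spread.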

How the data were processed

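Expression was measured on 4 arrays, 2 male and 2 female. The values are log2 expression values deposited by the authors. The tools oligo and RMA are listed in the submitters' processing notes; for versions, summary level and annotation build the entry is "not given in the sources used here". No further normalization was applied. Of 41345 rows, 23521 probe sets have exactly 1 gene symbol in GEO's platform annotation, 1814 several and 16010 none. The 23521 were fitted in limma (version 3.58.1, R version 4.3.3; lmFit, then eBayes) with sex as the only term, Benjamini-Hochberg adjustment over all of them and a threshold of 0.05. An exact permutation test of 2 against 2 cannot go below p = 0.333 (two-sided). Ranks use 1 probe set per gene, the one with the highest mean. The fit was also run on simulated data in which all probe sets shared a common SD, unlike the measured values. That run therefore does not show how many real differences the fit would miss here. The symbols of the 10 members matched RefSeq by Entrez ID.

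The members and the gene lists were chosen with earlier results of these data known. The 15 companion lists held 201 genes, of which 190 were measured. Candidates for naming were the 10 members, 20 fixed genes, and genes chosen per list. Those chosen per list were up to 2 of largest difference and 2 of highest mean above the median of the probe sets tested. Not all of these candidates are named in the text, and the fixed gene Cd74 was not measured. Further genes were chosen after their values were seen. The alternatives changed the rows tested (all, or without dim probe sets), the prior (trended and robust), the scaling (quantile again, or array medians), the weights, the threshold (0.1), the summary per gene, the block (replicate number) or the arrays (each left out). Plots were made in matplotlib (version 3.10.9, Python version 3.11.15).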

Additional observations from a re-analysis of the deposited data

How the results depend on the processing

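Under all 13 alternatives limma called 0 of the 10 cathepsins and 0 probe sets. The lowest adjusted p of any probe set was 0.138, with the trended and robust prior. Ctss, Ctsf and Ctsz kept their direction under all 13, with differences from 0.79 to 2.01, from 0.60 to 0.92 and from 0.02 to 0.16. The other 7 kept theirs under the alternatives that used all 4 arrays. With 1 array left out, the lowest and highest differences were -0.01 and 0.28 for Ctsa, -0.17 and 0.38 for Ctsb, -0.45 and 0.33 for Ctsc, -0.25 and 0.19 for Ctsd, -0.10 and 1.15 for Ctsh, -0.44 and 1.13 for Ctsk, and -0.09 and 0.37 for Ctsl, so each of these turned its sign. Such a fit takes the spread of the sex with 1 array from the pair that is left. The median difference of the members ranged from 0.07 without female 2 to 0.30, and was 0.10 after quantile normalization once more and 0.17 after centring. The count of members higher in females was 6 to 9 with 1 array left out; these counts, and those under both scalings, were added after seeing the data. With the replicate number as a block, limma called 0 members, and Ctss had a difference of 1.40 (SE 0.17, adjusted p = 0.993). Same-numbered male and female arrays had deviations that correlated at -0.064 over probe sets, and the labels do not pair them. Of 80 recomputed percentiles, 2 moved by more than their spread over arrays. Signal near the array medians limits what can be read for Ctsf and for the low companion genes.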
